A study of Mus musculus with 14 samples.

Results

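The C/EBP transcription factors Cebpa, Cebpb, Cebpd, Cebpe and Cebpg were followed in the livers of mice with concanavalin A hepatitis. They were taken by gene symbol, and all 5 were listed among the 17656 genes of every library. Whole-liver RNA was sequenced from 14 mice of 8 weeks, 1 library per mouse. There were 3 wild-type mice and 3 Ythdf1 knockout mice given saline, and 4 wild-type mice and 4 Ythdf1 knockout mice given concanavalin A (ConA) at 8 mg/kg into the tail vein, and all livers were taken at 8 h. Groups are named below by genotype and treatment, as in WT saline or KO ConA. KO mice lack Ythdf1, a reader protein that binds N6-methyladenosine in RNA, in all cells, and were made with CRISPR/Cas9 on a C57BL/6 background. ConA is a plant lectin that activates T cells and causes an immune-mediated hepatitis.

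Levels are in TPM, the number of transcripts of a gene among 1000000 after scaling for gene length, so levels of different genes can be set side by side. TPM does not carry the number of reads, so the depth is unknown, no counting error can be given, and the spread between mice is the only error. A gene is called higher or lower when limma gave a Benjamini-Hochberg adjusted p under 0.05 over all tested genes, and log2 fold changes are differences of group means of log2(TPM + 1), a scale on which changes of low genes are understated. The first principal component, with 75.4% of the variance, separated ConA from saline mice, and on the second, with 7.77%, replicate 3 of WT ConA and of KO ConA stood apart from the other ConA mice. WT saline replicates 2 and 3 were nearly identical, with a median log2 ratio of 0.0793 in size over genes, where the other 17 pairs of mice within a group had 0.128 to 0.397. For this reason comparisons that use WT saline were repeated with this pair averaged and counted as 1 mouse. Ythdf1 itself was not lower in KO, with 18.4 to 20.8 TPM in KO saline against 12.03 to 13.9 TPM in WT saline, and with 15.5 to 26.2 TPM in KO ConA against 18.7 to 25.6 TPM in WT ConA. A deletion inside a gene can leave most of its RNA in place, so this level does not check the knockout labels. The 6 hepatocyte markers summed to 104025 to 131609 TPM in the saline livers and to 51636 to 79221 TPM after ConA. In whole liver, fewer cells of a type and less RNA per cell cannot be told apart.

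C/EBP proteins bind DNA as dimers through a basic region and a leucine zipper, and members can pair with each other. C/EBPα maintains metabolic genes of the mature hepatocyte. C/EBPβ and C/EBPδ are known as inducible members that act with STAT3 and NF-κB on acute-phase genes in response to interleukin-6 and interleukin-1. C/EBPε is known from the late maturation of granulocytes, and C/EBPγ has the DNA-binding part but no activation domain of its own and pairs with other members and with ATF4.

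GENCODE vM21 on GRCm38 gives proteins of 359 residues for Cebpa, 296 for Cebpb, 268 for Cebpd, 281 for Cebpe and 150 for Cebpg. The stretch that codes for 20 residues of the basic region is shown for 4 members because it is the part that all 5 share. It lies in coding exon sequence, and capitals mark the codons of the 14 residues that are the same in all 5.
Cebpa, chr7:35120271-35120330, + strand: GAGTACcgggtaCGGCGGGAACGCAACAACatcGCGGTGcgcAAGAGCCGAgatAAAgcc
Cebpb, chr2:167689691-167689750, + strand: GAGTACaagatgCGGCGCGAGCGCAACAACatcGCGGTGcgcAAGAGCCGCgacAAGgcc
Cebpe, chr14:54710710-54710769, - strand: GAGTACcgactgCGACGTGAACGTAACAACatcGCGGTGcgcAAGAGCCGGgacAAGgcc
Cebpg, chr7:35050588-35050647, - strand: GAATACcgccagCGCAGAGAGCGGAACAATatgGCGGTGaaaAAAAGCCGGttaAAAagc
Over 60 residues from the start of this stretch, Cebpa and Cebpb had 76.7% identical residues, and Cebpg had 48.3% to 51.7% with the other members. Even so, most reads can be assigned to 1 member. Of the stretches of 50 bases, the read length of the study, 99.9% of Cebpa, 81.9% of Cebpb, 86.1% of Cebpd and 100% of Cebpe and Cebpg occur in no other gene on either strand. For Cebpb and Cebpd the rest lies in genes of the opposite strand, Tmem189 (6.95 to 19.5 TPM) and Spidr (1.61 to 6.72 TPM). Whether counting used the strand is not given in the sources used here, so reads in these overlaps may be shared.

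RefSeq promoter sequences on GRCm38.p6 were at hand for 3 of the 5 members. The 250 bases before the start site are shown for Cebpa, Cebpb and Cebpg because these genes differ in level and in their change after ConA. Capitals mark the letters of 4 short motifs, which were searched on both strands. TATAAA stands for the TATA box. CCAAT stands for the box of the same name. TGACG is part of a cyclic AMP response element, and the letters TTGCG are part of a C/EBP site. No 2 matches overlapped.
Cebpa, chr7:35119043-35119292, + strand: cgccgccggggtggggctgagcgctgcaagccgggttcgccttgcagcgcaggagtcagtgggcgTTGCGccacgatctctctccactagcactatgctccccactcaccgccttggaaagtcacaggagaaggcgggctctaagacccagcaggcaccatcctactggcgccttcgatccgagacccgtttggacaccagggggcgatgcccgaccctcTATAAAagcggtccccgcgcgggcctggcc
Cebpb, chr2:167688665-167688914, + strand: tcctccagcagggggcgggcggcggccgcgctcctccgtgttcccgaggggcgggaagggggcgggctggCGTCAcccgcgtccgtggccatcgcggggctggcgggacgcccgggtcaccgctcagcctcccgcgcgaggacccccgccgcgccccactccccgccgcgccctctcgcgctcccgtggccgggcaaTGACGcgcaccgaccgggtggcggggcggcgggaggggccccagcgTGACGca
Cebpg, chr7:35056567-35056816, - strand: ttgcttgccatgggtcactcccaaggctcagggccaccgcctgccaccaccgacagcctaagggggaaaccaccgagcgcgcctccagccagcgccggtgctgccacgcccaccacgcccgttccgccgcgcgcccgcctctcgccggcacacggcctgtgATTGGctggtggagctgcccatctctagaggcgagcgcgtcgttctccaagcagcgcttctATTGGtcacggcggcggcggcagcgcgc
Cebpa held TATAAA at positions -30 to -25 from the start site and TTGCG at -185 to -181. Cebpb held TGACG at -53 to -49 and at -7 to -3, and on the other strand at -180 to -176. Cebpg held CCAAT on the other strand, read as ATTGG in the run above, at -89 to -85 and at -28 to -24. Among 32851 promoters of this length, 12.4% held the TATA letters, 33.9% the CCAAT box, 17.8% the letters of the response element and 14.5% those of the C/EBP site. A STAT element, searched as TTCCNGGAA, had no match in the 3 windows, and 0.91% of all promoters held it. A kappa B element had no match either, and 1.41% of all promoters held it. These matches describe the letters only.

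Cebpa and Cebpb were the most abundant members in every liver, and their order changed between groups. In WT saline livers Cebpa was first with 258 ± 4.82 TPM (SD, n = 3), followed by Cebpb with 197 ± 7.70 TPM and Cebpg with 20.9 ± 2.22 TPM. Cebpd and Cebpe came last, and their ranges overlapped. In KO saline livers Cebpb was first with 258 ± 10.8 TPM followed by Cebpa with 199 ± 10.4 TPM, again followed by Cebpg and by overlapping Cebpd and Cebpe. After ConA Cebpb led in all 8 mice, with 444 ± 38.8 TPM (SD, n = 4) in WT and 481 ± 104 TPM in KO, and Cebpa followed. Cebpd came next, at 42.1 ± 6.11 TPM in WT ConA, where its range overlapped that of Cebpg (30.7 ± 8.99 TPM). In KO ConA its 50.7 ± 4.70 TPM lay above Cebpg (36.8 ± 9.01 TPM) without overlap, and Cebpe was last in all ConA mice.

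**Figure D1:**
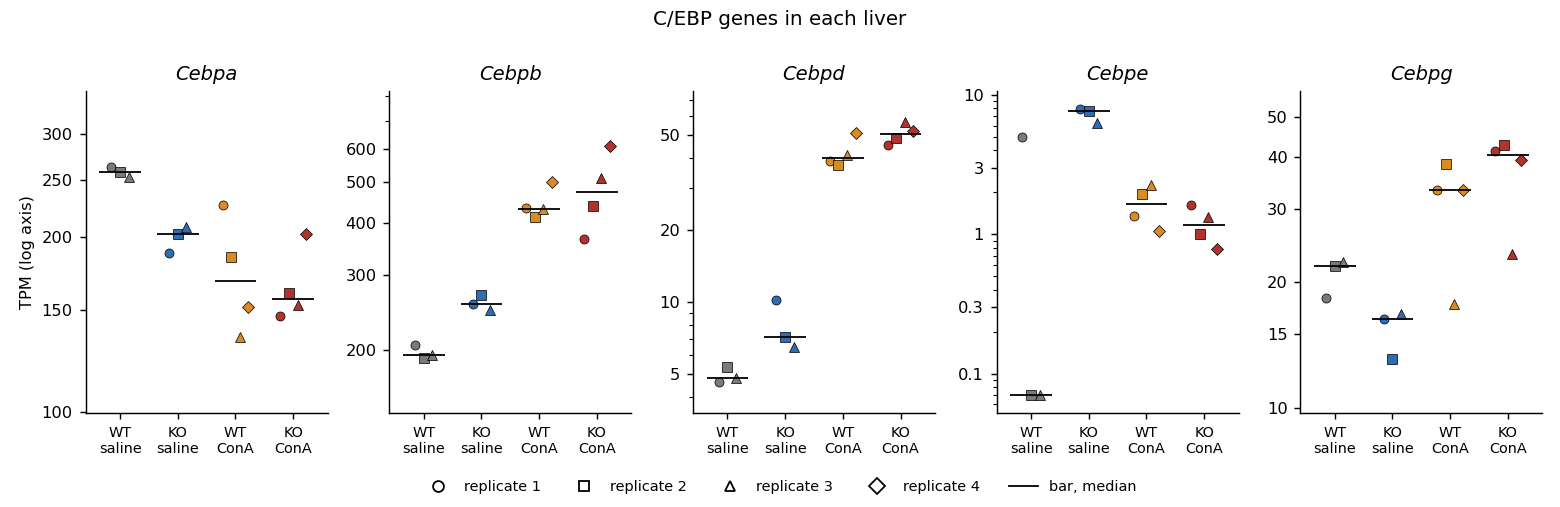
TPM of each C/EBP gene on a log axis in the 14 livers, with 1 point per mouse, the replicate number as the symbol and the group median as a bar. Cebpb and Cebpd of all 8 ConA mice lie above those of all 6 saline mice, and WT saline replicates 2 and 3 have Cebpe at 0.07 TPM.

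The first question is how ConA changed these genes in wild-type liver. Cebpb and Cebpd rose and Cebpa fell, so 3 of the 5 members were called, where 53.0% of 10768 tested genes were (22.0% higher and 31.0% lower). Cebpb was at 205, 191 and 194 TPM in the WT saline mice and at 434, 412, 431 and 501 TPM after ConA. All 4 ConA livers lay above all 3 saline livers, with a log2 fold change of 1.17 (SE 0.11, adjusted p = 3.70e-05 by limma). Cebpd had the widest change, from 4.64, 5.37 and 4.84 TPM to 39.0, 37.4, 41.2 and 51.0 TPM. Its log2 fold change was 2.85 (SE 0.15, adjusted p = 9.81e-07), again with no overlap. Cebpa, the factor of the mature hepatocyte, had 263, 258 and 253 TPM in saline mice and 227, 185, 135 and 151 TPM after ConA, and the groups did not overlap. Its log2 fold change of -0.59 (SE 0.18) had an adjusted p of 0.0183. That call was lost with WT saline replicates 2 and 3 averaged (adjusted p 0.0567) and without any 1 of the WT saline mice (0.0566 without replicate 1, 0.0586 without replicate 2 and 0.0548 without replicate 3), while the fold change stayed between -0.58 and -0.60. Cebpb and Cebpd were called in all of these settings.

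The same comparison in KO livers called 4 of the 5 members, where 64.6% of 10988 tested genes were called (33.9% higher and 30.7% lower). Cebpb went from 256, 270 and 248 TPM to 365, 439, 511 and 609 TPM, a log2 fold change of 0.87 (SE 0.16, adjusted p = 6.62e-04), with no overlap. For Cebpd the KO saline mice had 10.2, 7.19 and 6.50 TPM and the KO ConA mice 45.5, 48.6, 56.4 and 52.2 TPM. Its log2 fold change was 2.54 (SE 0.16, adjusted p = 2.88e-07). Cebpg also rose and Cebpe fell, and both are described below. Cebpa was not called (log2 fold change -0.28, 95% interval -0.56 to 0.01, adjusted p 0.0808). KO ConA replicate 4, at 202 TPM, overlapped the saline range of 188 to 208 TPM, and without that mouse the log2 fold change of Cebpa was -0.38 with an adjusted p of 0.0207. The interaction of genotype and ConA asks whether the ConA change differs between WT and KO, and it was not called for Cebpa (0.31, adjusted p 0.386), Cebpb (-0.30, 0.362) or Cebpd (-0.31, 0.381).

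**Figure D2:**
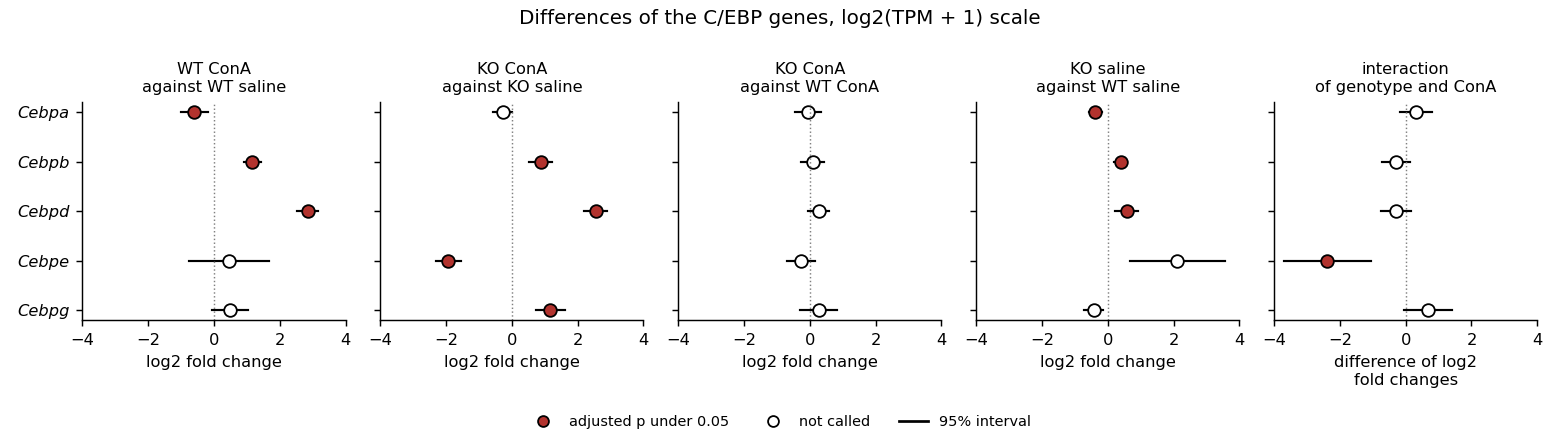
Log2 fold change of each C/EBP gene in the 4 comparisons, and in the last panel the difference between the ConA changes of KO and WT. Horizontal lines are 95% intervals and filled points have an adjusted p under 0.05, as for Cebpb and Cebpd in both ConA comparisons, while no point is filled in KO ConA against WT ConA.

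The family as a whole grew after ConA and changed its make-up. The 5 genes summed to 475 to 496 TPM (WT) and 478 to 499 TPM (KO) after saline, and ConA livers held 627 to 738 TPM (WT) and 600 to 903 TPM (KO). Cebpb made up 40.1% to 41.4% of that sum in WT saline mice and 51.1% to 53.97% in KO saline mice, and after ConA this share was 59.0% to 68.8% in WT and 60.9% to 68.6% in KO. The share of Cebpa was 53.0% to 54.2% in WT saline and 20.5% to 30.9% in WT ConA. Cebpd held 0.935% to 1.13% of the sum in WT saline and 5.32% to 6.92% in WT ConA. These shares are given as a description.

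The ratio of Cebpb to Cebpa within a liver does not depend on the scaling of the library. Its log2 value was -0.36, -0.43 and -0.38 in the WT saline mice and 0.93, 1.15, 1.67 and 1.72 in the WT ConA mice. In the KO mice it was 0.45, 0.41 and 0.25 after saline and 1.31, 1.45, 1.73 and 1.59 after ConA. The ratio was thus higher after ConA in every mouse of either genotype, by 1.76 in WT and 1.15 in KO. With 4 mice against 3, the exact two-sided permutation test cannot go below p = 0.0571, which is the value both comparisons gave (0.0762 adjusted over the 4 tests of the ratio). Permuted within genotype over all 14 mice, the exact test gave p = 0.00163, the smallest it can give, and 0.00653 adjusted. Between KO ConA and WT ConA the mean difference was 0.15 and the groups overlapped (exact permutation p = 0.486, adjusted 0.486). The 3 KO saline mice lay between 0.25 and 0.45, above the WT saline mice and below all ConA mice. That difference between the saline groups was not tested.

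**Figure D3:**
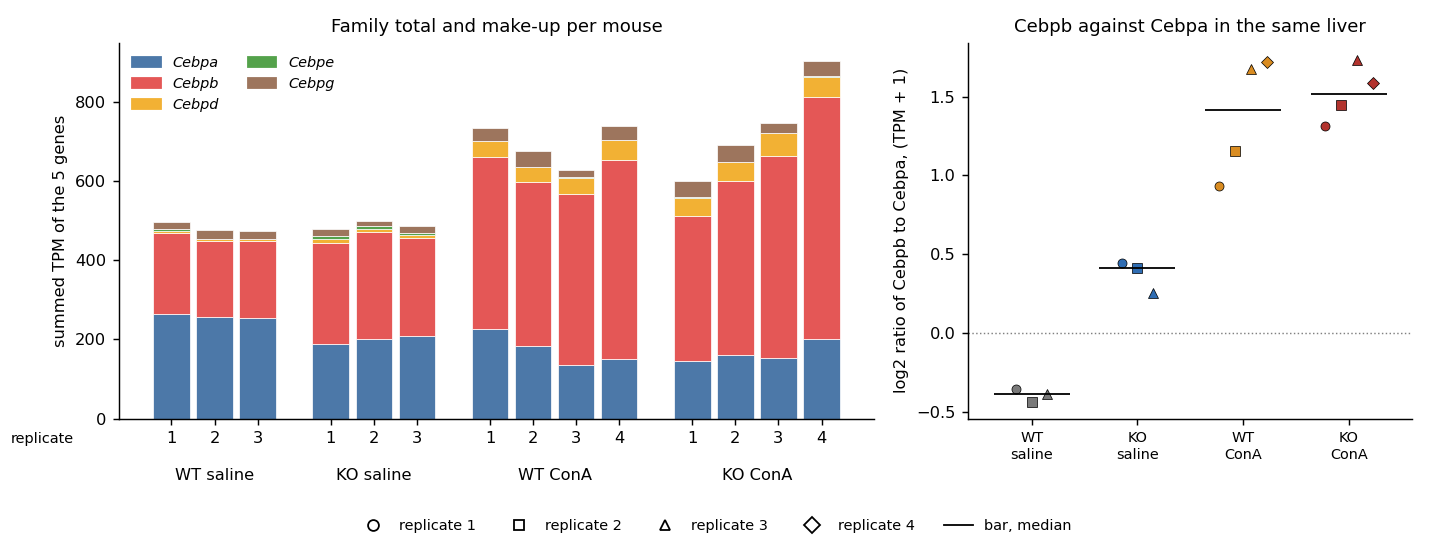
Left, stacked bars of the TPM of the 5 C/EBP genes in each liver, with the replicate number below. Right, the log2 ratio of Cebpb to Cebpa, computed from TPM + 1, with 1 point per mouse and the group median as a bar, which is below 0 in the 3 WT saline mice and above 0 in the other 11.

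Cebpg, the partner without an activation domain, rose in KO livers, from 16.3, 13.1 and 16.8 TPM to 41.5, 42.7, 23.4 and 39.5 TPM. The groups did not overlap, and the log2 fold change was 1.17 (SE 0.20, adjusted p = 4.66e-04). In WT livers it had 18.4, 22.0 and 22.4 TPM after saline and 33.4, 38.4, 17.7 and 33.3 TPM after ConA, and it was not called (log2 fold change 0.48, 95% interval -0.06 to 1.03, adjusted p 0.123). In both genotypes the ConA mouse with the lowest Cebpg was replicate 3, the libraries that stood apart above. Without WT ConA replicate 3 Cebpg was called in WT as well (0.72, adjusted p 9.76e-04), and it was called when TPM was rescaled per library (0.58, adjusted p 0.0198). Over all tested genes these settings called 65.9% and 56.3%, against 53.0% in the reported fit. The interaction was 0.69 with an adjusted p of 0.224, and 0.65 with 0.0244 when replicate 3 of both ConA groups was left out. Leaving both out brought the called interactions to 14.1% of 11270 tested genes, from 4.78% of 11327. The part of these 2 libraries in the result was not tested further.

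Cebpe was the least abundant member after ConA and the most uneven one after saline. WT saline replicate 1 had 5.01 TPM, and replicates 2 and 3 had 0.07 TPM each. The KO saline mice had 7.88, 7.61 and 6.32 TPM, above all WT saline mice. After ConA the 4 WT mice had 1.36, 1.95, 2.24 and 1.05 TPM and the 4 KO mice 1.61, 1.01, 1.32 and 0.78 TPM. In KO livers Cebpe therefore fell without overlap (log2 fold change -1.93, SE 0.18, adjusted p = 4.06e-06). In WT livers the ConA values lay within the wide saline range (0.46, 95% interval -0.77 to 1.68, adjusted p 0.509), but without WT saline replicate 1 Cebpe was called higher after ConA (1.29, adjusted p 0.0015). It was the only member with a called interaction (-2.39, SE 0.62, adjusted p 0.0440), where 4.78% of 11327 genes were called. That call was lost with WT saline replicates 2 and 3 averaged (-1.97, adjusted p 0.128), without WT saline replicate 2 or 3 (0.125 and 0.131), without KO saline replicate 1, 2 or 3 (0.108, 0.0949 and 0.0573), without WT ConA replicate 2 or 3 (0.0551 and 0.0605) and without KO ConA replicate 1, 2 or 4 (0.0563, 0.0749 and 0.0841). Without WT saline replicate 1 it was -3.22 with an adjusted p of 4.23e-05. The interaction of Cebpe was also not called with a pseudocount of 0.1, with no filter or with replicate 3 of both ConA groups left out. With the WT saline pair averaged, 0.243% of 11535 tested genes had a called interaction.

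Stromal genes varied over the same saline livers as Cebpe, and so did endothelial and cholangiocyte markers. Dcn, the decorin gene of stellate cells and fibroblasts, had 52.9, 13.2 and 14.4 TPM in WT saline replicates 1, 2 and 3 and 83.5, 47.9 and 77.2 TPM in KO saline. The sum of the 4 stellate markers ranged from 14.5 to 58.1 TPM among WT saline mice and from 53.7 to 92.8 TPM among KO saline mice. In KO saline 2 of the 4, Lrat and Des, were called higher, as were 659 of 10459 tested genes. Both calls were lost with WT saline replicates 2 and 3 averaged (adjusted p 0.153 and 0.112 by limma), without either mouse of that pair and without KO saline replicate 1 or 2, and that of Lrat also without KO saline replicate 3. With that pair averaged, 0.459% of 10675 tested genes were called. After ConA the sum was 20.2 to 58.5 TPM for WT mice and 48.4 to 95.6 TPM for KO mice, ranges that overlapped those of the saline mice, while Lrat and Des were called lower in KO after ConA. Of the 7 granule genes known to depend on C/EBPε, all but Lcn2 were at or below 0.40 TPM in the 6 saline livers of both genotypes. After ConA the Ngp level was 6.50 to 17.4 TPM for WT mice and 10.4 to 27.9 TPM for KO mice, while Cebpe was at 0.78 to 2.24 TPM. Of the 8 neutrophil markers, the early granulocyte genes Mpo and Elane stayed at or below 0.26 TPM in all 14 livers. The 8 together summed to 316 to 944 TPM after ConA. Ly6g, another of the 8, had 0.57, 4.85 and 5.04 TPM in WT saline replicates 1, 2 and 3, the reverse of Cebpe. In KO saline Ly6g was at 1.61 to 2.31 TPM. The part of stromal cells in the Cebpe result was not tested.

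**Figure D4:**
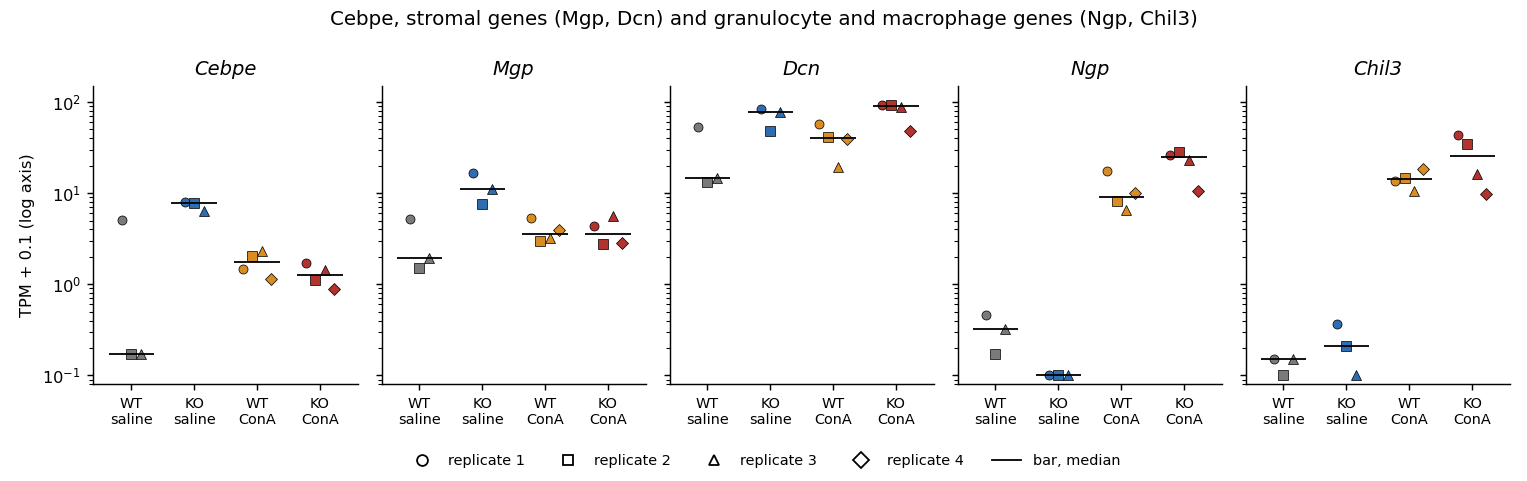
TPM + 0.1 on a log axis for Cebpe, the stromal genes Mgp and Dcn, the granule gene Ngp and Chil3, with 1 point per mouse and the group median as a bar. In saline livers Cebpe, Mgp and Dcn are higher in WT replicate 1 and the KO mice than in WT replicates 2 and 3, and Ngp and Chil3 are near 0 in saline and higher in all ConA livers.

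Between KO ConA and WT ConA, the comparison of genotypes in hepatitis, 0 of the 5 members were called by limma, and 0 had an unadjusted p under 0.05. Of 10519 tested genes 0.428% were called, and 1753 had an unadjusted p under 0.05 by limma. The 2 groups overlapped for every member. The log2 fold changes were -0.06 for Cebpa (95% interval -0.44 to 0.33), 0.09 for Cebpb (-0.26 to 0.44), 0.27 for Cebpd (-0.04 to 0.57), -0.27 for Cebpe (-0.69 to 0.15) and 0.27 for Cebpg (-0.30 to 0.83). The intervals leave room for differences of the sizes they span. The signs of the 2 smallest rested on 1 mouse each, since Cebpa was at 0.08 without WT ConA replicate 1 and Cebpb at -0.03 without KO ConA replicate 4.

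Without ConA, the comparison of KO saline against WT saline called 3 of the 5 members, where 19.2% of 10459 tested genes were called. Cebpb (0.39, adjusted p 0.0248) and Cebpd (0.57, adjusted p 0.0421) were higher and Cebpa (-0.37, adjusted p 0.0270) was lower in KO. Cebpe (2.12, adjusted p 0.0507) and Cebpg (-0.42, adjusted p 0.0527) were not called. None of the 5 genes overlapped between the groups. How many of all genes did not overlap was not counted, so this cannot be read as particular to the C/EBP genes. By limma 4056 of the 10459 tested genes had an unadjusted p under 0.05. With WT saline replicates 2 and 3 averaged, none of the members were called by limma, although all 5 had an unadjusted p under 0.05 (adjusted p 0.118 for Cebpb, 0.117 for Cebpa and 0.127 for Cebpd), with fold changes of 0.37, -0.38 and 0.59. That setting called 0.459% of 10675 tested genes, against 19.2% of 10459 in the reported fit, so the loss of calls was general. Leaving out WT saline replicate 2 or 3 or KO saline replicate 1 or 2 also ended all 3 calls (adjusted p from 0.0627 to 0.146), and leaving out WT saline replicate 1 ended that of Cebpd (0.0738). Over all tested genes, 0.477% and 0.422% were called without WT saline replicate 2 or 3. The shares were 2.7% and 6% without KO saline replicate 1 or 2. All 3 calls also ended with all 14 libraries in 1 fit (0.236 for Cebpa, 0.175 for Cebpb and 0.0726 for Cebpd), which called Cebpe instead (0.0268). That fit called 3.17% of 10459 tested genes. Without WT saline replicate 1 Cebpe (2.95, adjusted p 1.89e-04) and Cebpg (-0.51, 0.0364) were called. After rescaling of TPM per library the called members were Cebpb, Cebpd and Cebpe, all higher in KO. Both ConA comparisons use the saline groups of this comparison, so the values are not independent of each other.

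Several bZIP factors related to the C/EBP proteins changed with ConA. Of 12 partners and regulators, 11 were tested in WT livers, and ConA raised 4 and lowered 3, with a median log2 fold change of 0.20 against -0.07 over all tested genes. In KO livers 8 rose and 3 fell of 12 tested, with a median of 0.89 against 0.07. Among all tested genes 22.0% were called higher and 31.0% lower in WT, and 33.9% and 30.7% in KO. The 4 partners and regulators that rose in WT were Atf3, Ddit3, Nfil3 and Atf4, and they rose in KO as well. Ddit3, the stress-induced CHOP, which pairs with C/EBP proteins and keeps them from their usual sites, had 8.51 to 12.3 TPM in WT saline and 64.1, 68.8, 127 and 42.2 TPM in WT ConA (2.58, adjusted p = 1.47e-04). Nfil3, a repressor of the D-site, was at 7.15 to 9.06 TPM in WT saline mice and at 27.6 to 43.9 TPM in WT ConA mice (2.06, adjusted p = 1.71e-05). The 3 that fell were the PAR factors Dbp, Hlf and Tef, which bind similar DNA sites and follow the circadian clock. Dbp went from 203, 171 and 169 TPM to 10.5, 9.55, 9.46 and 2.57 TPM in WT (-4.47, adjusted p = 1.44e-05) and from 133, 223 and 160 TPM to 3.72, 2.12, 2.19 and 2.96 TPM in KO (-5.52, adjusted p = 7.88e-09). Hlf fell by 2.27 on the log2 scale in WT and 2.17 in KO, and Tef fell by 1.52 and 1.93.

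Atf3 and Trib1 were the 2 of the 12 partners and regulators with a called interaction, where 4.78% of 11327 tested genes were called. Atf3, an early stress factor, had 33.6, 45.7, 24.1 and 47.9 TPM in WT ConA and 70.1, 81.5, 188 and 151 TPM in KO ConA, from 1.13 to 1.45 TPM in WT saline and 0.73 to 1.17 in KO saline. Each KO ConA mouse exceeded the highest WT ConA mouse, and the interaction was 1.80 (adjusted p 0.0342). It was lost with WT saline replicates 2 and 3 averaged (adjusted p 0.104), after rescaling (0.0602), with no filter on low TPM (0.0587), and without WT saline replicate 2 or 3 (0.104 and 0.101), KO saline replicate 1 or 2 (0.0872 and 0.0826) or KO ConA replicate 4 (0.0677). Trib1, an adaptor that directs C/EBPα to degradation, had 20.3, 22.0 and 22.4 TPM in WT saline and 12.8, 13.2 and 13.4 TPM in KO saline. After ConA it had 34.0, 31.5, 21.5 and 29.8 TPM in WT and 40.8, 38.9, 35.1 and 56.5 TPM in KO. Its interaction of 1.21 (adjusted p 0.0229) was lost with the same pair averaged (0.0863) and without WT saline replicate 2 or 3 (0.0850 and 0.0930) or KO saline replicate 1 or 2 (0.0757 and 0.0536). With that pair averaged, 0.243% of 11535 tested genes had a called interaction. In KO ConA against WT ConA 0 of the 12 were called by limma. Of the 12, 7 had an unadjusted p under 0.05, as had 1753 of 10519 tested genes. Dbp was called lower in KO without WT ConA replicate 4 (-1.55, adjusted p 0.0265). With all 14 libraries in 1 fit 3 were called, Atf3 (1.60, adjusted p 0.00785) and Trib2 (0.95, 0.0116) higher and Dbp (-1.15, 0.0370) lower in KO. That fit called 6.08% of 10519 tested genes, against 0.428% in the reported fit. In KO saline against WT saline, where 1350 of 10459 tested genes were called lower, 3 of the 11 tested partners and regulators were (Cebpz, Trib1 and Cop1). The calls of all 3 were lost by limma when the near-identical WT saline pair was averaged or lost either mouse, and those of Cebpz and Cop1 also without KO saline replicate 1 or 2 and after rescaling. Averaging the pair left 0.459% of 10675 tested genes called.

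**Figure D5:**
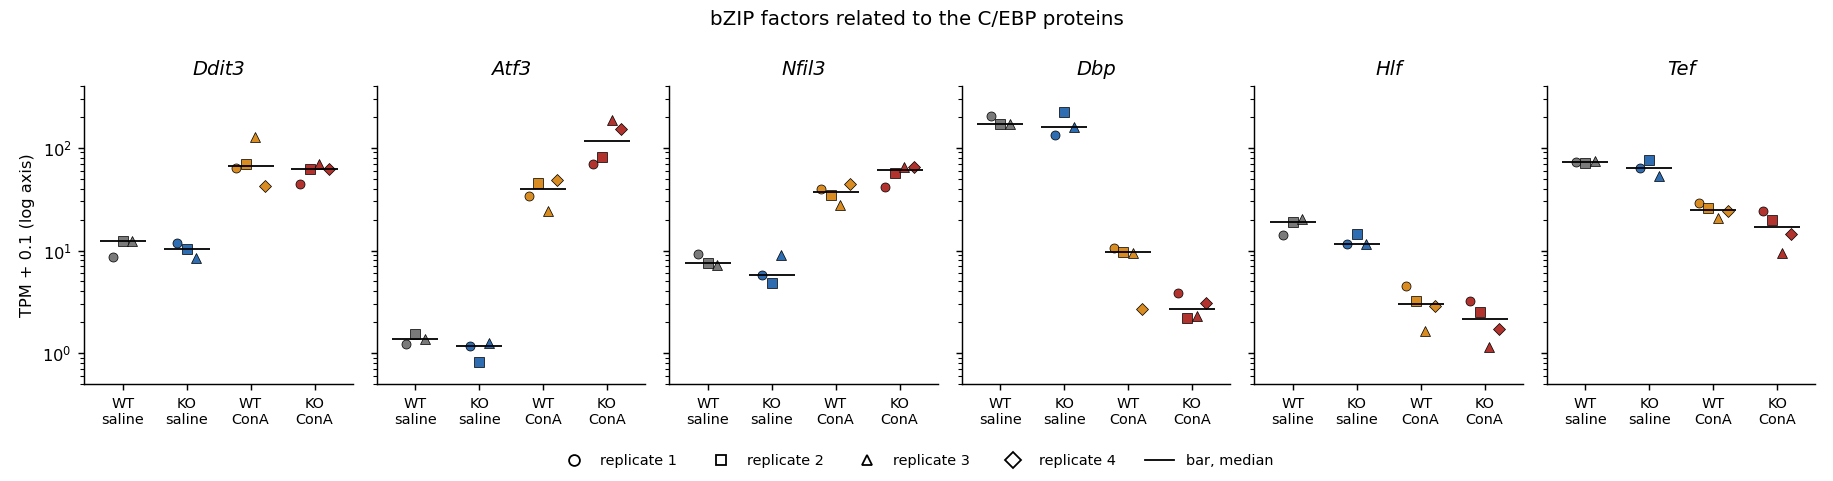
TPM + 0.1 on a log axis for 6 bZIP factors related to the C/EBP proteins, with 1 point per mouse and the group median as a bar. Ddit3, Atf3 and Nfil3 are higher and Dbp, Hlf and Tef lower in all ConA livers than in all saline livers.

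Among signals known to induce C/EBP genes, more rose than fell after ConA. Of 18 such genes 16 were tested. Tnf and Osmr, and in KO also Il1b, were under 1 TPM in all saline livers of that genotype and entered the test through the ConA livers alone. Of the others 7 of 14 rose and 3 fell in WT, against 22.0% and 31.0% of all tested genes. In KO 7 of 13 rose and 1 fell, against 33.9% and 30.7% of all tested genes. Il6 and Osm, both ligands of this group, were too low to be tested, and Il6 was at or below 0.59 TPM in every liver. Among receptors, Il1r1, the interleukin-1 receptor, rose from 11.4 to 12.7 TPM in WT saline to 81.9 to 204 TPM in WT ConA (3.32, adjusted p = 1.21e-05). Osmr, the oncostatin M receptor, was at 0.10 to 0.49 TPM in WT saline and at 2.49 to 6.25 TPM in WT ConA. No p is given for it because of how it entered the test. Tnf was at or below 0.05 TPM in all saline livers and at 3.37 to 5.64 TPM in WT ConA. Lifr, the receptor of leukemia inhibitory factor, and Il1rap, the interleukin-1 coreceptor, fell in WT by 1.57 and 1.69 on the log2 scale, and Foxa2, a hepatocyte factor, fell by 0.85 (adjusted p 0.0260). The Foxa2 call was lost with the near-identical saline pair averaged (0.0721), with no filter (0.0762), without WT saline replicate 1, 2 or 3 (0.0673, 0.0672 and 0.0761) and without WT ConA replicate 4 (0.0620). Stat3, which carries interleukin-6 signals to the nucleus, ranged over 24.3 to 25.2 TPM (WT) and 16.2 to 18.7 TPM (KO) after saline, and over 66.4 to 108 TPM (WT) and 111 to 130 TPM (KO) after ConA. Its interaction of 0.89 (adjusted p 0.0314) was lost with the pair of WT saline mice averaged (0.1004), without WT saline replicate 2 or 3 (0.0980 and 0.101), without KO saline replicate 1 or 2 (0.0910 and 0.0630) and without KO ConA replicate 2 or 4 (0.0562 and 0.0636). Averaging the pair left 0.243% of 11535 tested genes with a called interaction. None of the 16 were called by limma between the ConA groups. Of the 16, 5 had an unadjusted p under 0.05, as had 1753 of 10519 tested genes. Nfkb1, a subunit of NF-κB, was called higher in KO with all 14 libraries in 1 fit (0.61, adjusted p 0.0321). That fit called 6.08% of 10519 tested genes. The count of 1 that fell in KO was 2 without KO saline replicate 2 or KO ConA replicate 1 and after rescaling. With the replicate number as a block it was 3 (Foxa2 with an adjusted p of 0.0234 and Lifr with 0.0267 were added).

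Genes known as C/EBP targets moved in opposite directions by class. Of 21 acute-phase genes 20 rose in WT and 20 in KO, with median log2 fold changes of 2.46 and 2.84, and none fell. Of all tested genes 22.0% were called higher in WT and 33.9% in KO. Saa3, a serum amyloid A, was at 41.0 to 53.9 TPM in WT saline but at 14932 to 30461 TPM in WT ConA (8.85, adjusted p = 3.38e-08). Saa2 went from 101 to 154 TPM to 42234 to 49917 TPM (8.60, adjusted p = 8.69e-09), and Lcn2, an iron-siderophore binder, from 53.4 to 71.1 TPM to 11859 to 18023 TPM (7.78, adjusted p = 2.88e-08). The 21 genes together held 29376 to 31917 TPM in WT saline but 227793 to 270554 TPM in WT ConA, so they took up that much of each 1000000. The interaction was called higher for 6 of the 21, Saa2 among them (1.12, adjusted p 0.0280), against 299 of 11327 tested genes. Saa2 was lower in KO saline (47.8 to 77.4 TPM) than in WT saline, and its ConA ranges overlapped (47863 to 50748 TPM in KO). The count of 6 dropped to 1 once the near-identical WT saline pair was averaged, where 0.243% of 11535 tested genes were called in either direction. It was also 1 without WT saline replicate 2 or 3 or KO saline replicate 1. Without KO ConA replicate 4 it was 2, and after rescaling it was 3. Saa2 was not called when that pair was averaged (0.0753), after rescaling (0.0804), or without WT saline replicate 2 or 3 (0.0571 and 0.0930), KO saline replicate 1 (0.0853) or KO ConA replicate 4 (0.0556).

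Of 12 metabolic genes that C/EBPα is known to activate in hepatocytes, ConA lowered 11 and raised 1 in WT (median -1.43), and lowered 10 and raised 1 in KO (median -1.04). Of all tested genes 31.0% were called lower in WT and 30.7% in KO. G6pc, the last enzyme of glucose release, went from 117, 122 and 121 TPM to 3.22, 6.85, 4.86 and 17.4 TPM in WT (-3.97, adjusted p = 5.21e-05). Gys2, the liver glycogen synthase, fell by 2.75 and Pck1, an enzyme of gluconeogenesis, by 2.21 on the log2 scale. Tat, tyrosine aminotransferase, was the gene that rose, from 726, 1143 and 1154 TPM to 1679, 1844, 1272 and 2101 TPM in WT (0.78, adjusted p 0.0129, and 0.0504 without WT saline replicate 1). The 12 genes summed to 104127 to 118830 TPM in WT saline but to 52575 to 70777 TPM in WT ConA. In KO livers the count of 1 that rose was 2 without KO saline replicate 3. Between the genotypes after ConA 0 of the acute-phase and 0 of the metabolic genes were called by limma. Of the 21 acute-phase genes 6 and of the 12 metabolic genes 3 had an unadjusted p under 0.05, as had 1753 of 10519 tested genes. Gys2 was called lower in KO with all 14 libraries in 1 fit (-0.83, adjusted p 0.0180) and with the replicate number as a block (0.0353). Those settings called 6.08% and 1.33% of 10519 tested genes. In KO saline against WT saline 1350 of 10459 tested genes were called lower. Of the 21 acute-phase genes 8 were called lower in KO there. That count was 1 with the near-identical WT saline pair averaged or without either mouse of it, 2 without KO saline replicate 1, and 5 without KO saline replicate 2 or after rescaling, and without a filter it was 2. With the pair averaged, 0.459% of 10675 tested genes were called in either direction.

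Markers of other cell types moved with ConA as well. The counts below stand beside 22.0% of all tested genes called higher and 31.0% lower in WT, and 33.9% and 30.7% in KO. Of the 6 granule genes tested, 5 were under 1 TPM in every saline liver and entered the test through the ConA livers alone, so no count of rises is given for them. Chil3 among them, a chitinase-like protein of macrophages and granulocytes, did not exceed 0.05 TPM in WT saline and was at 10.5 to 18.3 TPM in WT ConA. The 8 neutrophil markers summed to 5.27 to 11.2 TPM in saline and 316 to 944 TPM after ConA, with 4 called higher in each genotype of the 5 tested genes that reached 1 TPM in a saline liver. The 6 Kupffer cell markers summed to 25.3 to 105 TPM in saline and 4.74 to 28.4 TPM after ConA, with 5 called lower in WT and 3 in KO. T cell markers summed to at most 2.98 TPM and none could be tested. Of 6 hepatocyte markers, 5 of which are also among the metabolic genes above, 5 fell and 1, Tat, rose in each genotype, and without a filter 3 fell in WT. Leaving out genes under 1 TPM in every saline liver of the genotype, 1 of 3 endothelial markers rose and 1 fell in WT, and 2 of 4 rose and 1 fell in KO. By the same rule 2 of 3 cholangiocyte markers rose in WT and 0 of 3 in KO. The endothelial rise in WT was lost without any 1 of the WT saline mice or WT ConA replicate 2, and the cholangiocyte count was 1 without WT saline replicate 2 or 3 or WT ConA replicate 1 or 2. Lcn2 is also among the acute-phase genes. The part of these cell types in the C/EBP results was not tested.

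The genes whose pattern was most like each member over the 14 livers were found by the root mean square difference of centred log2(TPM + 1) among 11326 other genes. For Cebpa these were Hs6st1 (0.117), Sgsm2 (0.130) and Tigit (0.153), and for Cebpb Sdc4 (0.162), Unk (0.165) and Alyref2 (0.166). Sdc4, a cell-surface proteoglycan, had mean levels of 274 TPM in WT and 295 TPM in KO after saline, and of 559 and 657 TPM after ConA. Trim47 (0.214), Pfkl (0.223) and Rhob (0.240) were closest to Cebpd. Cdc73 (0.0895), Arl8b (0.0909) and Uba6 (0.105) were closest to Cebpg, and all 3 had their lowest ConA value of each genotype in replicate 3. Cebpe had no gene as close. Mgp, matrix Gla protein (0.486), Mustn1 (0.508) and Cygb, a globin of stellate cells (0.509), came first, and all 3 were higher in WT saline replicate 1 than in replicates 2 and 3.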

How the data were processed

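Liver RNA of 14 mice was sequenced by the authors with a BGISEQ-500 (single-end, 50 bases). The values deposited by the authors are TPM with 2 decimals, 1 table per mouse, each summing to 1000000. The submitters' processing notes name Bowtie2, RSEM 1.3.1 and the build GRCm38.p6, while the paper's methods name STAR and HTSeq, so the route to the TPM values is not settled. No column was left unmapped. Groups came from the sample labels. The labels do not say that mice shared a litter or day.

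R 4.3.3 and limma 3.58.1 (lmFit, then eBayes with an intensity trend) fitted log2(TPM + 1) for the 2 groups of a comparison, or all 14 libraries for the interaction. Genes entered when the number of libraries with a TPM of 1 or more was not below the size of the smaller group. The fit was tested on simulated data. The Cebpb to Cebpa ratio was compared with exact two-sided permutation tests in Python 3.11.15 with SciPy 1.17.1, with p adjusted over the 4 tests. The members and the gene lists (partners and regulators, upstream signals, acute-phase and hepatocyte metabolic targets, granule genes, and markers of 7 cell types) were chosen with earlier results of these data known. From each functional list the 3 called genes with the largest rise and the 3 with the largest fall in WT were named, plus partners and signals with a called interaction. Il6, Osm, Il1b, Nfkb1, Trib2, Atf4, Cebpz, Cop1, Dcn, Lrat, Des, Mpo, Elane and Ly6g were named after their values were seen. Marker lists are given as counts and sums. Other settings tried were 0.1 as pseudocount, a TPM minimum of 5 or none, median-ratio rescaling of each library, 1 fit over all 14 libraries, robust eBayes, the near-identical WT saline pair averaged, a replicate block, and leaving out each mouse in turn. Leaving out replicate 3 of both ConA groups was chosen after seeing the data. The coding sequence of 1 member is not reported here.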

Additional observations from a re-analysis of the deposited data

Results flagged for a closer look

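In 4 of 60 tests of a group of 4 ConA mice (1 per gene or summary value and genotype), 1 mouse stood apart from the other 3 by more than Dixon's 95% limit for the gap divided by the range. Chance flags about 1 in 20 groups. Cebpg in KO ConA replicate 3 (23.4 TPM, gap 0.867 of the range) and Il1r1 in the same mouse (76.2 TPM, 0.844) were the lowest values of their group. Dbp in WT ConA replicate 4 (2.57 TPM, 0.917) and Saa2 in WT ConA replicate 1 (42234 TPM, 0.905) were the lowest of theirs.

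The ConA change differed between KO and WT mice by the interaction test for Cebpe (-2.39, adjusted p 0.0440), Atf3 (1.80, adjusted p 0.0342), Trib1 (1.21, adjusted p 0.0229), Stat3 (0.89, adjusted p 0.0314) and Saa2 (1.12, adjusted p 0.0280), all by limma. None of these 5 were called with WT saline replicates 2 and 3 averaged (adjusted p 0.128, 0.104, 0.0863, 0.1004 and 0.0753). In that setting the interaction was called for 0.243% of 11535 tested genes, against 4.78% of 11327 in the reported fit. The loss of calls was thus general and not particular to these genes.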

How the results depend on the processing

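The count of called C/EBP genes in KO saline against WT saline (3) was 5 with a filter at TPM of 5, 1 with all 14 libraries in the fit (Cebpe, not 1 of the 3), 0 by limma when the near-identical WT saline pair was averaged and 0 to 4 when 1 mouse was left out. For the interaction (1) it was 0 with a pseudocount of 0.1, without a filter and with that pair averaged, and 0 to 1 with 1 mouse left out. With that pair averaged, 0.459% of all tested genes were called in KO saline against WT saline and 0.243% in the interaction. Leaving out 1 mouse gave 2 to 4 called members in WT ConA against WT saline, 4 to 5 in KO ConA against KO saline and 0 in KO ConA against WT ConA. The other settings kept these 3 counts within 1.5 times. In KO ConA against WT ConA, leaving out 1 mouse gave -0.17 to 0.08 for Cebpa (0.0775 without WT ConA replicate 1) and -0.03 to 0.22 for Cebpb (-0.0297 without KO ConA replicate 4). The causes were not tested. The ratio of Cebpb to Cebpa kept its sign in all settings, and its tests within a genotype cannot reach 0.05. Rescaling moved the median log2 fold change of all genes in the interaction from 0.14 to 0.03. In no comparison did every same-numbered pair of mice deviate together (correlations of deviations from -0.19 to 0.41) or every mouse correlate best with its own number, and no source says what a number stands for, so the fits have no block. With the replicate number as a block, 4 members were called in KO saline against WT saline, since Cebpe had an adjusted p of 0.0297, and no other call of a member changed. Among the listed genes the block called Trib2 (0.95, adjusted p 0.0450) and Gys2 (-0.83, 0.0353) in KO ConA against WT ConA and brought the signals that fell in KO after ConA from 1 to 3 (Foxa2 0.0234 and Lifr 0.0267). In KO ConA against WT ConA the block called 1.33% of 10519 tested genes, against 0.428% without it. Depth is unknown, so no limit from counting can be given.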
